A study of Mus musculus with 15 samples.

Results

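The perinodal hyaluronan and lectican matrix genes are 8 genes chosen by symbol out of the 18536 genes in the deposited table: the link protein genes Hapln1, Hapln2 and Hapln4, the lectican genes Bcan, Ncan and Vcan, and the tenascin genes Tnr and Tnc. All 8 were found, and all 8 passed the filter of a normalized read count of at least 10 in at least 3 libraries. They were followed through 15 bulk RNA-seq libraries of mouse auditory nerve, 3 each at postnatal days 3, 7, 14 and 21 (P3, P7, P14, P21) and in adults. Per the labels, each library is total RNA from nerve dissected out of the cochleae of 1 mouse, with both ears pooled, so the 3 libraries of an age come from separate mice. Strain, genotype, sex, treatment and the adults' age in weeks are not given in the sources used here. The adult libraries carry control names in the labels, without a treated counterpart among the libraries used here. Whether they come from the same experiment as the younger libraries is not given. Any such difference cannot be told apart from age in the comparisons with adults.

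Hyaluronan is a long unbranched sugar polymer laid down outside cells. Lecticans are chondroitin sulfate proteoglycans that hold hyaluronan with one end, link proteins lock that bond, and tenascins crosslink the other end of the lecticans. In the mouse brain and optic nerve, Hapln2 protein sits with versican and brevican at nodes of Ranvier, the gaps in myelin where the action potential is renewed, and Hapln4 binds brevican around axons and synapses. The auditory nerve carries a central stretch myelinated by oligodendrocytes and a peripheral stretch myelinated by Schwann cells.

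Libraries held between 35250155 and 42258736 recovered reads, where 1 read is worth a normalized count between 0.843 and 1.22 and a floor of 3 reads is a normalized count between 2.53 and 3.65. The neuron and Schwann cell marker sums lay far above the floor at every age, though single markers were low, such as Prph (180 to 589 at P3). The 8 summed neuron markers reached 334518 to 353362 in adults, against 36228 to 56528 at P3. The sum of 6 fibroblast markers ran the other way, 53281 to 62593 in adults, against 558716 to 844565 at P3, as did those of 8 cartilage markers (13914 to 17206 in adults, against 315265 to 357385 at P3) and 6 bone markers (4287 to 5099.9 in adults, against 82084 to 155254 at P3). The oligodendrocyte and astrocyte sums were higher in adults without overlap. The sum of 8 oligodendrocyte markers was 6954 to 9869.9 in adults, against 1427 to 3347 at P3. That of 7 astrocyte markers was 50569 to 62668 in adults, against 16954 to 35747 at P3. Not every marker followed its sum: by the limma test given below, 5 of 8 oligodendrocyte and 3 of 7 astrocyte markers rose and none fell. Olig1, Olig2 and Aldh1l1 had lower means in adults, Olig2 without overlap (98.4 to 136 in adults, against 187 to 445 at P3). In bulk RNA, fewer cells of a type and less RNA per cell cannot be told apart. The oligodendrocyte sum varied widely among mice of an age: P7 replicate 6 was low (3515, against 15027 in the highest P7 library) and P14 replicate 3 high (28572, against 2451 in the lowest P14 library). Separately, 4 libraries (P14 replicate 1, P21 replicates 1 and 2, adult replicate 3) were low in the Y-linked gene Eif2s3y.

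From P3 to adult the set exchanged its leading genes. Hapln2, Hapln4 and Bcan rose in adults against P3 (34.4% of all tested genes rose), Ncan, Vcan and Tnc fell (34.3% of all fell), and Hapln1 and Tnr did not pass the test at these end points. A gene was called where its p, adjusted by Benjamini-Hochberg over all 16723 tested genes, was under 0.05 in 1 limma fit over all 15 libraries on log2(normalized count + 1), so a fold change understates the change of a low gene. The 6 called members of 8 stand beside 68.7% of all tested genes called in adults against P3, a background so high that the count says little about the set. At P7 against P3, 3 of 8 were called, against 28.1% of all tested genes: Hapln1 and Hapln4 rose (15.4% of all rose) and Tnc fell (12.8% of all fell). At P14 against P7, 7 of 8 were called, against 48.1%: Hapln1, Hapln2, Hapln4 and Bcan rose (24.3% of all rose) and Ncan, Vcan and Tnc fell (23.8% of all fell). At P21 against P14, 1 of 8 was called, against 9.29%, and that was Hapln1, which fell. That background of 1553 genes was itself unsteady: 631 genes were called without P14 replicate 3, 979 without P14 replicate 2, 481 without P14 replicate 3 and P7 replicate 6, 754 without the libraries low in Eif2s3y and 137 with only both ages in the fit. At P7 against P3, 4703 genes were called. Without P3 replicate 3 there were 3124, and without P7 replicate 5 there were 3080. For adult against P21, 8266 genes were called. There were 3987 without the libraries low in Eif2s3y and 5211 with only both ages in the fit. In adults against P21, 2 of 8 were called, against 49.4%: Hapln4 rose (25.4% of all rose) and Hapln1 fell (24.1% of all fell). The libraries of both ages did not overlap for 4 of 8 members at P7 against P3 (54.2% of all tested genes), 5 at P14 against P7 (61.4%), 3 at P21 against P14 (24.4%), 6 in adults against P21 (56.1%) and 7 in adults against P3 (76.4%). Over all 5 ages jointly, 7 of 8 differed, against 85.4% of all tested genes. The members' median log2 changes were 0.76 at P7 against P3, -0.55 at P14 against P7, -0.78 at P21 against P14, 0.61 in adults against P21 and 0.25 in adults against P3, and the medians over all tested genes lay between -0.0198 and 0.00387.

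**Figure D1:**
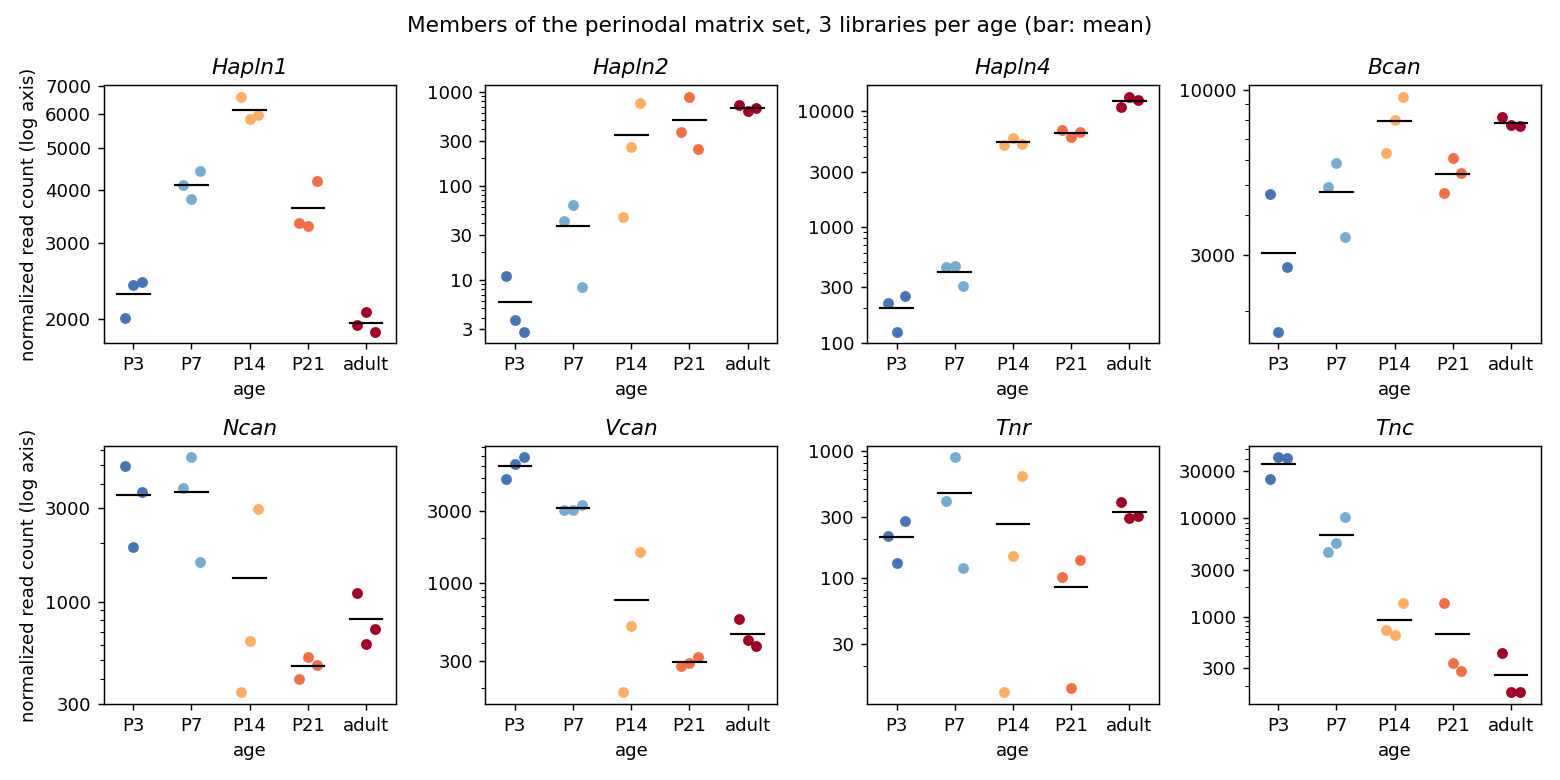
Normalized read count (log axis) of each of the 8 genes against age, with 1 point per library (3 per age) and a bar at the mean. Hapln4 libraries of neighbouring ages do not overlap, Hapln1 is highest at P14, Vcan and Tnc drop by P14, and Tnr spreads widely within P7, P14 and P21.

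The sequence just upstream of the start was available for 7 members in RefSeq's promoter table (GRCm38.p6, the patched form of mm10), and Hapln4 has no entry. The 150 bases before the start are shown for 1 gene that rose, Bcan, and 3 that fell, Ncan, Vcan and Tnc, which sets the lectican that rose beside the 2 that fell and the tenascin that changed most. Each line runs 5′ to 3′ on the minus strand, at chr3:88000357-88000506 for Bcan, chr8:70120845-70120994 for Ncan, chr13:89742513-89742662 for Vcan and chr4:64047016-64047165 for the outermost of 2 starts of Tnc. Capitals mark TATAA (the core of a TATA box), ACAAT (the core of a SOX protein motif) and GGGCGG (a GC box), each searched on both strands, so that a match to the reverse complement also counts.
Bcan: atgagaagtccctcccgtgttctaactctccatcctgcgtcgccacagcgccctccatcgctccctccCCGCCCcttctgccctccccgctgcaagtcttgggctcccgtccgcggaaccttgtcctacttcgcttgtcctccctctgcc
Ncan: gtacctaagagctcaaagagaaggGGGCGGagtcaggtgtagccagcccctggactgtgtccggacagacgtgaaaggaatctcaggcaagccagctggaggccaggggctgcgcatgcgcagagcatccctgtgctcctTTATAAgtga
Vcan: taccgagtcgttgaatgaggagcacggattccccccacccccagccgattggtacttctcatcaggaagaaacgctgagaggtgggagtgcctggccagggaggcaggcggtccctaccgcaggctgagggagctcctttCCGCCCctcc
Tnc: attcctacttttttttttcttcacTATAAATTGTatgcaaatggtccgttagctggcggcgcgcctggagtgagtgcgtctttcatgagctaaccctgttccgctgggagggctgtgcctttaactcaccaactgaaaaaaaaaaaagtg
Ncan held TATAA on both strands in 1 stretch next to its start, and 1 GGGCGG. Tnc held TATAA followed directly by 1 ACAAT, as its reverse complement. The window before the other start of Tnc (chr4:64046937-64047086), not shown, also held 1 TATAA, closer to its start, and neither other motif. Bcan and Vcan held 1 GGGCGG each, as its reverse complement. Of 32851 windows of the same length, 14.2% held TATAA, 17.4% ACAAT and 28.6% GGGCGG. Hapln2, which rose, held 3 matches to ACAAT and none to the other motifs, while Hapln1 and Tnr held none of the 3 motifs. A match is a string of letters and not a shown binding site.

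Hapln1 (chr13:89540636-89611832, plus strand, mm10) encodes the link protein first known from cartilage, which is also needed for perineuronal nets in the mouse brain. Its normalized counts were 2011, 2402 and 2430.5 at P3 and 4093, 3801 and 4411 at P7, 6592, 5845 and 5984 at P14, 3349.7, 3296 and 4201 at P21, and 1929, 2078 and 1864 in adults. The 3 libraries of each age lay close together, the ages P3, P7 and P14 did not overlap, and adults overlapped with P3. Hapln1 rose 1.801-fold at P7 against P3 (log2 change 0.85 ± 0.10 SE, limma adjusted p = 0.000112) and 1.498-fold at P14 against P7 (log2 change 0.58 ± 0.10 SE, limma adjusted p = 0.000447). It then fell 1.71-fold at P21 against P14 (log2 change -0.77 ± 0.10 SE, limma adjusted p = 0.000872) and 1.84-fold in adults against P21 (log2 change -0.88 ± 0.10 SE, limma adjusted p = 0.000104). Adults averaged 1957 ± 109.7 and P3 2281 ± 234 (SD, n = 3 each), a log2 change of -0.22 that did not pass (limma adjusted p = 0.079) and did pass with quantile normalization (log2 -0.34, adjusted p = 0.00729) and without P3 replicate 1 (log2 -0.31, adjusted p = 0.024) or P21 replicate 3 (adjusted p = 0.0389). The fall at P21 against P14 did not pass without the libraries low in Eif2s3y (log2 -0.49, limma adjusted p = 0.0621), which leaves 2 libraries at P14 and 1 at P21. The cartilage marker sum was 315265 to 357385 at P3, 202052 to 256291 at P14 and 13914 to 17206 in adults. The Schwann cell marker sum had 124904 to 217439 at P3, 649063 to 694690 at P14 and 225264 to 243581 in adults. The 3 libraries took the same order for Hapln1 as for the cartilage sum in 3 of 5 ages and as for the Schwann cell sum in 3 of 5. The cartilage sum includes the lectican gene Acan, which made up 5542 to 8702 of it in adults. Acan alone took the same order as Hapln1 in adults, so the adult match need not reflect the other cartilage markers. The part of cartilage or Schwann cells in the result was not tested.

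Hapln2 (chr3:88021750-88027511, minus strand) encodes a link protein of nodes of Ranvier in the mouse central nervous system, where oligodendrocytes express it. At P3 it was at or near the floor, with 13, 4 and 3 recovered reads, which are normalized counts of 10.96, 3.796 and 2.83. Counts were 42.5, 62.9 and 8.45 at P7, 46.5, 257 and 754 at P14, 371, 890.3 and 249 at P21 and 729, 622 and 674 in adults. All adult libraries stood far above all P3 libraries, while P7, P14 and P21 spread over several fold within an age and overlapped with the neighbouring age. Hapln2 rose in adults against P3 (log2 change 6.81 ± 0.90 SE, limma adjusted p = 1.45e-05), a value that depends on the added 1 because P3 is so low and lay between 5.47 and 7.31 over all alternatives. Of the 8 oligodendrocyte markers, 5 rose in the same comparison, with a median log2 change of 2.36 over the 8, and at P7 against P3, 6 of 8 rose, with a median of 2.86. Their part in the result was not tested. Hapln2 also rose 7.06-fold at P14 against P7 (log2 change 2.82 ± 0.90 SE, limma adjusted p = 0.0195), with overlapping libraries. That call was lost without P7 replicate 6 (log2 1.99, limma adjusted p = 0.0944), without P14 replicate 2 (adjusted p = 0.0593), without P14 replicate 3 (log2 1.90, adjusted p = 0.093), and without P7 replicate 6 and P14 replicate 3 together (log2 1.07, adjusted p = 0.301), as well as with only both ages in the fit (adjusted p = 0.0836) or limma-voom (adjusted p = 0.0837). At P7 against P3 the log2 change was 2.30 ± 0.90 SE (limma adjusted p = 0.0724), and 3.13 without P7 replicate 6 (adjusted p = 0.0275). It passed under 7 alternatives in all, among them without P14 replicate 1 (adjusted p = 0.0295), without P14 replicate 3 (adjusted p = 0.0427) and without the libraries low in Eif2s3y (adjusted p = 0.0345). P21 against P14 and adults against P21 did not pass (limma adjusted p = 0.499 and 0.584).

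Hapln4 (chr8:70083529-70090862, plus strand) encodes the brain link protein that in mice binds brevican around axons and synapses of auditory brainstem and cerebellar neurons. Its counts were 218, 124 and 255 at P3, 453, 463 and 308 at P7 and 5127, 5901 and 5178 at P14, then 6841, 6002 and 6597 at P21 and 10817, 13319 and 12487 in adults. No library overlapped with those of a neighbouring age, and the widest gap lay between P7 and P14. Hapln4 rose 2.098-fold at P7 against P3 (log2 change 1.07 ± 0.22 SE, limma adjusted p = 0.00325) and 13.4-fold at P14 against P7 (log2 change 3.74 ± 0.22 SE, limma adjusted p = 4.23e-08). P21 against P14 did not pass (log2 change 0.26 ± 0.22 SE, limma adjusted p = 0.486). Adults rose a further 1.88-fold against P21 (log2 change 0.91 ± 0.22 SE, limma adjusted p = 0.00462), and 63.5-fold against P3 (log2 change 5.99 ± 0.22 SE, limma adjusted p = 1.02e-10). Without the libraries low in Eif2s3y, which leaves 1 library at P21, the log2 change in adults against P21 was 0.86 (limma adjusted p = 0.133). The neuron marker sum was 251566 to 263071 at P14, against 54948 to 66590.5 at P7, and the oligodendrocyte sum was 2451 to 28572 at P14, against 3515 to 15027 at P7. Within ages, the 3 libraries took the same order for Hapln4 as for the neuron sum in 1 of 5 ages, as for the oligodendrocyte sum in 1 and as for the cartilage sum in 2. The part of these cell types in the result was not tested.

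Bcan (chr3:87987531-88000356, minus strand) encodes brevican, the shortest lectican and a component of perineuronal and perinodal matrix in the central nervous system. Its counts were 4676, 1713 and 2746 at P3, 4909, 5872 and 3422 at P7, 6293, 8051 and 9517 at P14, 4717, 6075 and 5473 at P21 and 8209, 7738 and 7683 in adults. Adults stood above every P3 library, and P7 overlapped with P3. Bcan rose 2.81-fold in adults against P3 (log2 change 1.49 ± 0.29 SE, limma adjusted p = 0.000442) and 1.697-fold at P14 against P7 (log2 change 0.76 ± 0.29 SE, limma adjusted p = 0.0438). The oligodendrocyte and astrocyte sums were also higher in adults than at P3, as given above, 5 of 8 oligodendrocyte and 3 of 7 astrocyte markers rose, and their part in the result was not tested. The P14 call was near the threshold: it was lost under 12 alternatives, among them without P7 replicate 6 (log2 0.55, limma adjusted p = 0.175), without P14 replicate 3 (log2 0.62, adjusted p = 0.139), without both (log2 0.41, adjusted p = 0.366) and without the libraries low in Eif2s3y (log2 0.92, adjusted p = 0.0622). The other 8 were quantile normalization and leaving out 1 other library, with adjusted p between 0.0521 and 0.0992. At P7 against P3 (log2 change 0.72, limma adjusted p = 0.0797) the test passed only after a library was left out, P3 replicate 1 (log2 1.09, adjusted p = 0.00674) or P7 replicate 6 (log2 0.94, adjusted p = 0.047), in the second case also together with P14 replicate 3. P21 against P14 did not pass (log2 change -0.54, limma adjusted p = 0.264), and adults against P21 (log2 change 0.55, limma adjusted p = 0.134) passed only in a fit of these 2 ages alone (adjusted p = 0.0164).

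Ncan (chr8:70093085-70120844, minus strand) encodes neurocan, a lectican of the developing brain. Its counts were 4946, 1904 and 3624 at P3, 3798, 5467 and 1596 at P7, 342, 631 and 2979 at P14, 400.5, 520.2 and 475 at P21 and 1102, 608 and 726 in adults. P14 replicate 3 was the exception among the later libraries, within the P3 and P7 ranges, and P7 replicate 6 was the lowest at its age. Ncan did not pass at P7 against P3 (log2 change -0.01 ± 0.65 SE, limma adjusted p = 0.99) and fell 3.72-fold at P14 against P7 (log2 change -1.89 ± 0.65 SE, limma adjusted p = 0.028). That call was lost without P7 replicate 5 (log2 -1.51, limma adjusted p = 0.113) or P14 replicate 1 (log2 -1.23, adjusted p = 0.132), while without P7 replicate 6 and P14 replicate 3 together it was -3.29 (adjusted p = 0.000129). It was also lost without P7 replicate 4, P14 replicate 2 or the libraries low in Eif2s3y, with edgeR, DESeq2, only both ages or an Eif2s3y covariate (adjusted p between 0.0548 and 0.188 over these). In adults against P3 it fell 4.12-fold (log2 change -2.04 ± 0.65 SE, limma adjusted p = 0.0129), with no overlap, and without P3 replicate 1 the log2 change was -1.74 (adjusted p = 0.053). P21 against P14 did not pass (log2 change -0.90, limma adjusted p = 0.416), and adults against P21 (log2 change 0.76, limma adjusted p = 0.347) passed only in a fit of these 2 ages alone (adjusted p = 0.0436).

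Vcan (chr13:89655310-89742512, minus strand) encodes versican, a large lectican of embryonic and connective tissue whose isoforms, not separated in these gene-level counts, include one of central nodes of Ranvier. Its counts were 4937, 6216 and 6847 at P3, 3045, 3073 and 3288 at P7, 186, 512 and 1608 at P14, 279.8, 291 and 322 at P21 and 574, 417 and 380.4 in adults. P3 and P7 did not overlap with any later age, and the P14 libraries spread over several fold with replicate 3 on top. Vcan fell 5.84-fold at P14 against P7 (log2 change -2.55 ± 0.51 SE, limma adjusted p = 0.00114) and 13.2-fold in adults against P3 (log2 change -3.72 ± 0.51 SE, limma adjusted p = 2.21e-05). The sums of fibroblast, cartilage and bone markers were also lower, without overlap, in the same comparisons, and their part in the result was not tested. At P7 against P3 the log2 change was -0.92 ± 0.51 SE (limma adjusted p = 0.197), and it passed with only both ages in the fit (adjusted p = 0.00165) and without P14 replicate 1 or 3 (adjusted p = 0.0433 and 0.0291). P21 against P14 did not pass (log2 change -0.85, limma adjusted p = 0.329) and did without P14 replicate 1 (log2 -1.61, adjusted p = 0.0177), and adults against P21 (log2 change 0.60, limma adjusted p = 0.354) passed only in a fit of these 2 ages alone (adjusted p = 0.0442). An antisense gene overlaps Vcan, and since the use of strand is not given in the sources used here, their reads cannot be told apart.

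Tnc (chr4:63959785-64047015, minus strand) encodes tenascin-C, a glycoprotein of growing connective tissue, cartilage and immature glia. Its counts were 25148, 41528 and 40743 at P3, 4519.9, 5603 and 10239 at P7, 735, 660.2 and 1397 at P14, 1367, 341 and 285 at P21 and 428, 171 and 174 in adults. P3, P7 and P14 stood apart from each other without overlap, and at P21 replicate 1 was far above the other two. Tnc fell 5.47-fold at P7 against P3 (log2 change -2.45 ± 0.55 SE, limma adjusted p = 0.00579), 7.25-fold at P14 against P7 (log2 change -2.86 ± 0.55 SE, limma adjusted p = 0.000817) and 149-fold in adults against P3 (log2 change -7.22 ± 0.55 SE, limma adjusted p = 7.08e-08). P21 against P14 did not pass (limma adjusted p = 0.404), and adults against P21 (log2 change -1.13, limma adjusted p = 0.106) passed only without P21 replicate 3 (adjusted p = 0.0422) or adult replicate 1 (adjusted p = 0.0468). The fibroblast, cartilage and bone marker sums were also lower in adults than at P3, as given above, and their part in the result was not tested. A gene on the opposite strand overlaps Tnc, with the same limit as for Vcan.

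Tnr (chr1:159523769-159924922, plus strand) encodes tenascin-R, the tenascin of the central nervous system, made by oligodendrocytes and some neurons and present at central nodes. Its counts were 214, 131 and 279.7 at P3, 398, 884 and 119 at P7, 12.4, 148 and 629 at P14, 101, 13.4 and 137 at P21 and 392, 292 and 306 in adults. The spread within P7, P14 and P21 was wider than any step between ages, while the adult libraries lay close together and just above P3. Tnr passed no test, jointly (limma adjusted p = 0.211) or between ages, with a log2 change of 2.48 in adults against P21 (limma adjusted p = 0.0949) and of 0.72 in adults against P3 (limma adjusted p = 0.602). Without P14 replicate 3, P14 against P7 passed (log2 -2.96, limma adjusted p = 0.0431), as did the joint test (limma adjusted p = 0.0459). Without P7 replicate 6 as well, P14 against P7 had log2 -3.73 (limma adjusted p = 0.0208) and the joint test a limma adjusted p = 0.0231. P14 against P7 did not pass under 26 of 28 alternatives, with log2 -0.19 without the libraries low in Eif2s3y. Adults against P21 passed without P14 replicate 1 (adjusted p = 0.0312) and without P7 replicate 6 and P14 replicate 3 together (adjusted p = 0.0428), and adults against P3 with only both ages in the fit (adjusted p = 0.0499).

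**Figure D2:**
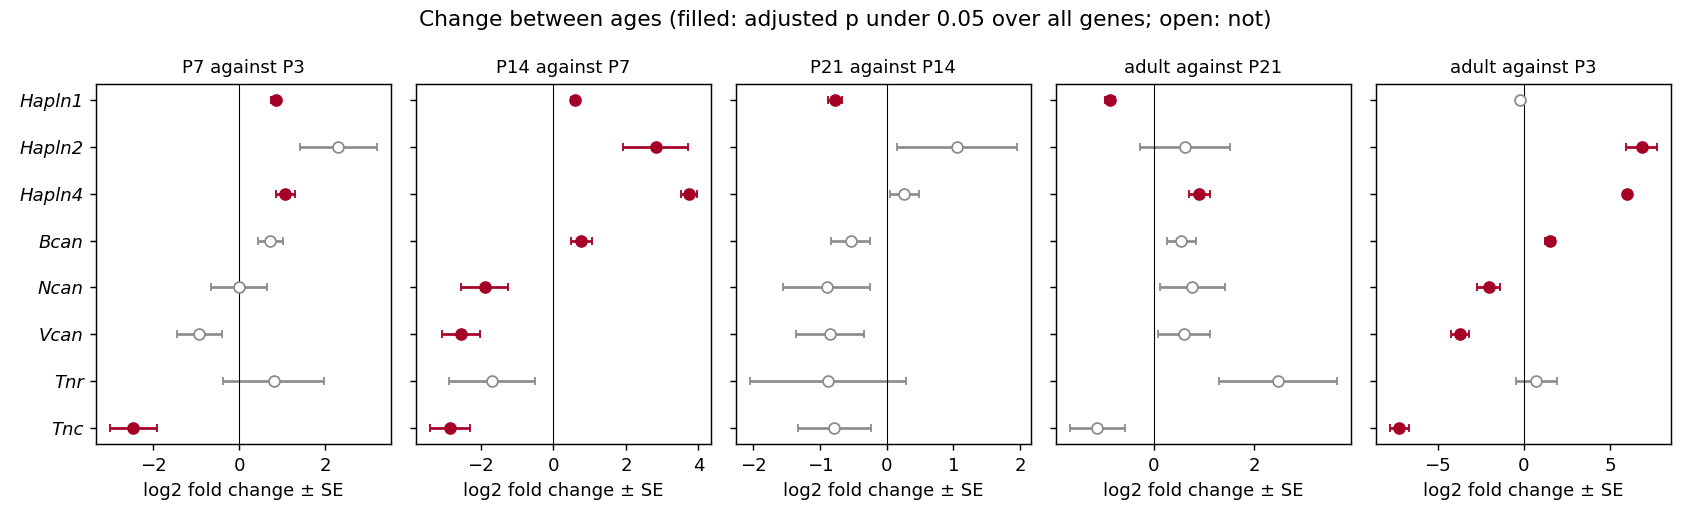
Log2 change of each gene in each of the 5 comparisons, with the standard error of the limma fit as the bar and filled points for an adjusted p under 0.05. The filled points sit mostly in P14 against P7 and in adults against P3, and P21 against P14 has 1 filled point, Hapln1.

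Levels can be compared between genes per kilobase of exon, and on that scale the leading gene of the set changed with age. At P3, Tnc led with a normalized count per kilobase of 4607 ± 1189 (SD, n = 3), above Bcan at 749 ± 370, Ncan at 485 ± 212, Vcan at 415 ± 67.3 and Hapln1 at 386 ± 39.7, and these 4 overlapped from neighbour to neighbour. Hapln4 (50.8 ± 17.2), Tnr (16.2 ± 5.79) and Hapln2 (2.47 ± 1.87) came last, each below the one before it in every library. In adults the order was Hapln4 at 3111 ± 325, Bcan at 1938 ± 71.1, Hapln1 at 332 ± 18.6, Hapln2 at 285 ± 22.6 and Ncan at 113 ± 35.9, without overlap. Tnc (33.1 ± 18.98), Vcan (31.6 ± 7.13) and Tnr (25.7 ± 4.22) were last and did not differ beyond their spread.

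Shares within each family shifted with age. Hapln4 was 83.4% ± 1.82 of the 3 link proteins' summed count per kilobase in adults and 11.6% ± 3.78 at P3 (SD, n = 3 each), while Hapln1 was 8.92% ± 0.656 in adults and 87.9% ± 4.02 at P3. The link protein sum itself was 3727 ± 312 in adults and 439.7 ± 38.5 at P3. Bcan was 93.1% ± 1.63 of the 3 lecticans in adults and 43.8% ± 7.93 at P3, and Vcan was 1.51% ± 0.255 in adults and 27.6% ± 11.5 at P3. With aggrecan (Acan), the fourth lectican, added to the sum, Bcan was 65.1% ± 4.61 in adults and 34.4% ± 10.6 at P3. Acan is 1 of the 8 cartilage markers, but it rose in adults against P3 while 6 of the 8 fell. The lectican sum without Acan, at 2083 ± 113 in adults and 1649 ± 532 at P3, spread more widely at P3 than in adults. Tnr was 46.01% ± 8.98 of the 2 tenascins in adults and 0.372% ± 0.165 at P3. That shift came with a tenascin sum of 58.8 ± 23.2 in adults and 4623 ± 1188 at P3, and Tnr itself did not pass the test.

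**Figure D3:**
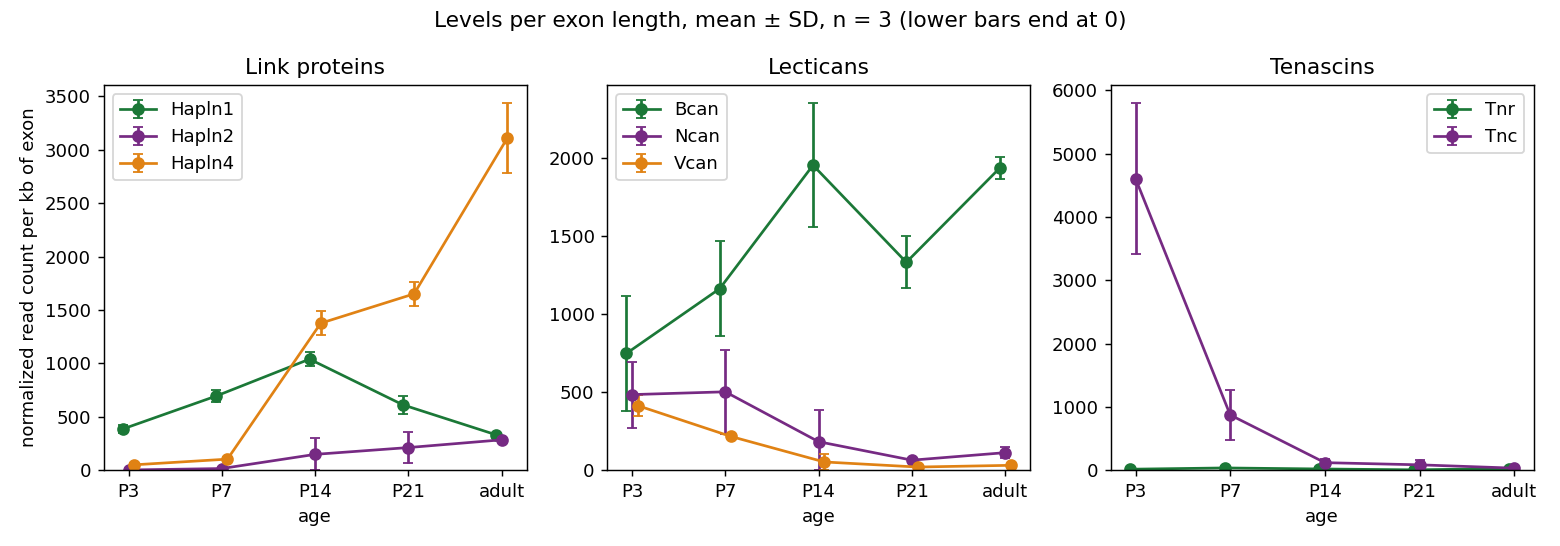
Normalized read count per kilobase of exon (linear axes from 0) against age for link proteins, lecticans and tenascins, with points at the mean of 3 libraries and bars of 1 SD, which end at 0 where they would pass below it. Hapln4 overtakes Hapln1 at P14, Bcan has the highest mean of the lecticans at every age, and the Tnc level at P3 exceeds all others.

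Each of the link protein genes of the set lies beside a lectican gene, with no protein-coding gene between them: Hapln1 and Vcan are 43.5 kb apart on chromosome 13, Hapln2 and Bcan 21.4 kb on chromosome 3, and Hapln4 and Ncan 2.22 kb on chromosome 8, end to end. Neighbours did not share a course in 2 of the 3 pairs. The ratio of Hapln4 to Ncan, per kilobase, was 17.998, 40.2 and 31.6 in the adult libraries and 0.0809, 0.1197 and 0.129 in the P3 libraries, so the leading gene of this closest pair was the reverse at the end points. Hapln1 to Vcan was 0.998, 0.947 and 0.8698 at P3, 3.29, 3.03 and 3.29 at P7, 86.8, 27.96 and 9.12 at P14, 29.3, 27.8 and 31.98 at P21 and 8.23, 12.2 and 12.01 in adults. Hapln2 and Bcan both rose in adults against P3, by unequal factors, and their ratio was 0.152, 0.138 and 0.1505 in adults and 0.00402, 0.003798 and 0.00176 at P3. Bcan to Ncan was narrow within P21 at 20.9, 20.7 and 20.4, against 32.6, 22.6 and 5.66 at P14.

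The spread among mice of an age was not the same for all members. Within P14 and within P7, Hapln2, Bcan, Ncan and Tnr took the same order of libraries as the oligodendrocyte marker sum, which was 2451, 7435 and 28572 in the P14 libraries and 10167, 15027 and 3515 in the P7 libraries. The 3 libraries took the same order as that sum in 4 of 5 ages for Bcan, 3 for Hapln2, 3 for Ncan, 2 for Vcan, 2 for Tnr, 1 for Hapln4 and 0 for Hapln1 and Tnc. Against the sum of 7 astrocyte markers, the order was the same in 4 ages for Hapln2 and Ncan and 3 for Bcan and Tnr. Gjb6 alone was 21623 of the astrocyte sum of 34873 in P14 replicate 1, and 15993 of 78690 in P14 replicate 3. The match was not particular to these glial sums. At P14 all of Hapln2, Bcan, Ncan and Tnr also took the order of the fibroblast sum, as did Hapln2, Ncan and Tnr in adults. No oligodendrocyte or astrocyte marker was at 0 in any library. The part of the glial markers in these spreads was not tested, and with 3 libraries an order is a description only.

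**Figure D4:**
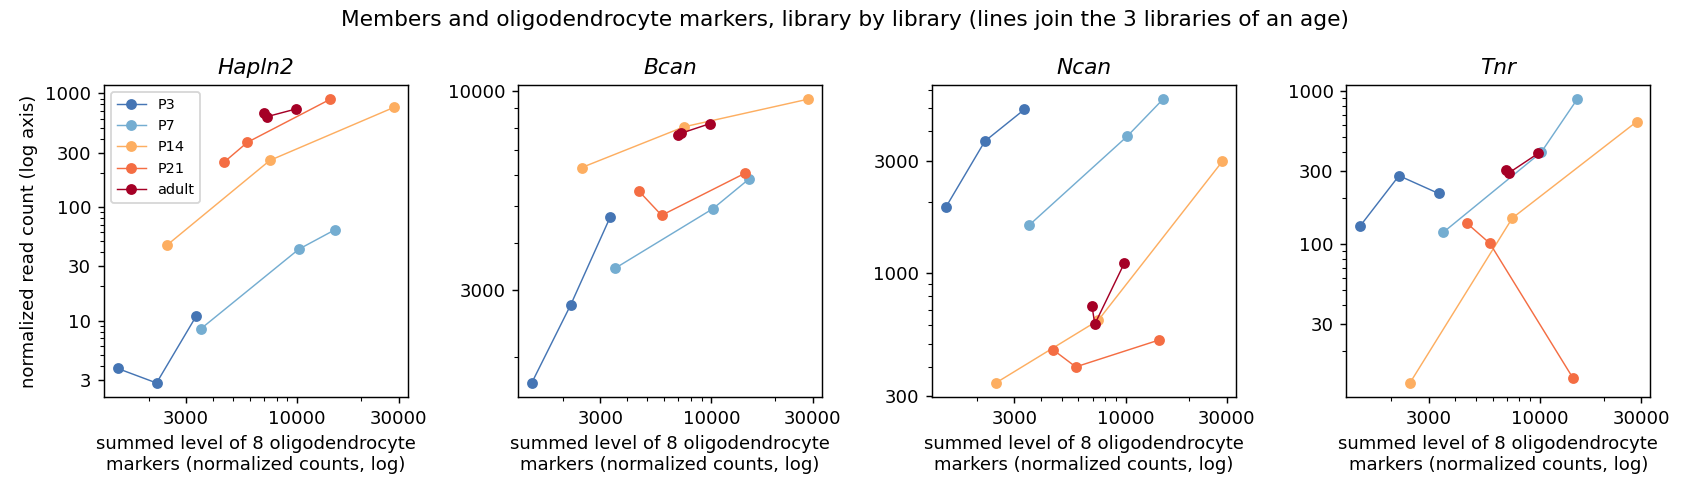
Normalized read count of Hapln2, Bcan, Ncan and Tnr (log axis) against the summed level of 8 oligodendrocyte markers (log axis), 1 point per library, with lines that join the 3 libraries of an age. Within P7 and P14 all 4 genes run upward with the markers, and at P21 Tnr runs downward.

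The genes whose levels over the 15 libraries were most like each member, by Pearson correlation of log2(normalized count + 1) among 15502 genes, are given as a description of libraries that share age and dissection. Hapln1 was closest to Srpk3 (r = 0.964), Azin1 (0.960) and Narf (0.956). Hapln2 was closest to Etnk2 (0.976), Medag (0.976) and Klk6 (0.971), a protease gene of oligodendrocytes whose mean counts were 0.949, 12.3, 302, 913 and 1168 from P3 to adult. Hapln4 was closest to Nat8l (0.996), which makes N-acetylaspartate in neurons, Mapk10 (0.995), a neuronal kinase, and Slco4a1 (0.995). The nearest genes of Bcan were Hepacam (0.933), a glial adhesion gene, Gclc (0.930) and Tubb4a (0.923). Those of Ncan were Btbd17 (0.958), Arhgef26 (0.956) and Kcne1l (0.953), and those of Vcan were Ttyh3 (0.976), Thbs3 (0.975) and Tmem132a (0.974). Tnr had Ppp2r3a (0.928), Mon2 (0.872) and Gna12 (0.868). Tnc was nearest to Mmp13 (0.990), a collagenase of cartilage and bone, Itgb3 (0.987) and Cd109 (0.986). Among the members themselves, Hapln2, Hapln4 and Bcan correlated with each other (r between 0.80 and 0.92), as did Ncan, Vcan and Tnc (r between 0.74 and 0.91), while Hapln1 stayed between -0.28 and 0.21 with every other member.

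Other genes of the hyaluronan and proteoglycan pathway were read against the background in adults against P3, where 68.7% of all tested genes were called, 34.4% rising and 34.3% falling. Of the hyaluronan synthases, Has2, the synthase that mouse embryos need, fell in adults against P3 (log2 change -4.61 ± 0.50 SE, limma adjusted p = 2.05e-06). Has1 (log2 change 2.50, limma adjusted p = 0.000191) and Has3 (log2 change 0.86, limma adjusted p = 0.000678) rose, so that 3 of 3 were called. Has2 was at or below the floor in adults (1.09 to 3.12, against 69.1 to 82.9 at P3). Has1 was low at P3 (3.37 to 11.3, against 33.9 to 40.6 in adults). The sizes of these changes of Has2 and Has1 therefore depend on the added 1. Among 5 hyaluronan breakdown genes, 1 rose and 1 fell in adults against P3, 2 of 5 called beside 68.7% of all tested genes: Cemip, which cleaves hyaluronan outside cells (log2 change 0.63, limma adjusted p = 0.00139), and the hyaluronidase gene Hyal2 (log2 change -1.52, limma adjusted p = 2.02e-09). The list also held Cemip2, which was not found under that symbol, and the same gene was tested under its older symbol Tmem2. Of 10 hyaluronan receptors and binding proteins, 1 rose, Itih2 (log2 change 2.62, limma adjusted p = 7.92e-08), a serum protein that attaches to hyaluronan, and 6 fell, among them the receptor genes Cd44 (log2 change -1.98, limma adjusted p = 1.11e-08) and Hmmr (log2 change -7.35, limma adjusted p = 7.99e-07), the second also a gene of dividing cells. Hmmr lay near the floor in adults (0 to 6.24, against 567 to 618 at P3), so the size of its change depends on the added 1.

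Of 21 enzymes that build and sulfate the chondroitin sulfate chains of lecticans, 4 rose and 14 fell in adults against P3, where 34.4% of all tested genes rose and 34.3% fell. The list's median log2 change was -0.53. Chsy1, which polymerizes the chain, fell in adults against P3 (log2 change -2.97, limma adjusted p = 3.35e-10) and already at P14 against P7 (log2 change -1.45, limma adjusted p = 1.11e-06). The sulfotransferase gene Chst13 fell (log2 change -3.74, limma adjusted p = 3.46e-08), and the linker enzyme gene B3gat3 rose (log2 change 0.97, limma adjusted p = 1.7e-08). Of 8 lectican-cleaving proteases and their inhibitor, 2 rose and 3 fell: Adamts5 (log2 change 1.17, limma adjusted p = 1.78e-06) and the inhibitor Timp3 (log2 change 0.26, limma adjusted p = 0.0358) rose, the second with log2 -0.18 under quantile normalization, and Adamts9 (log2 change -3.39, limma adjusted p = 2.52e-08), Adamts15 (log2 change -2.16, limma adjusted p = 3.58e-06) and Adamts8 fell.

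Of 10 receptors of proteoglycans and tenascins, 5 rose and 4 fell in adults against P3, beside 34.4% and 34.3% of all tested genes. The tenascin-binding integrin genes Itga8 (log2 change -2.59, limma adjusted p = 1.22e-09) and Itga9 (log2 change -2.46, limma adjusted p = 2.57e-08) and Ptprz1 (log2 change -1.84, limma adjusted p = 8.34e-06), itself a chondroitin sulfate proteoglycan, fell. The neuronal Nogo receptor genes Rtn4r (log2 change 1.77, limma adjusted p = 3.11e-08) and Rtn4rl2 (log2 change 2.27, limma adjusted p = 1.56e-08) and Cntn1 (log2 change 1.35, limma adjusted p = 1.64e-07), a paranodal adhesion gene, rose. Both other chondroitin sulfate proteoglycan genes fell, Cspg4 (log2 change -1.47, limma adjusted p = 0.000324) and Cspg5 (log2 change -2.17, limma adjusted p = 1.77e-05). Of the remaining family members, Acan rose (log2 change 1.03, limma adjusted p = 0.00685) after falling at P7 against P3 (log2 change -1.43, limma adjusted p = 0.0033), Hapln3 fell (log2 change -1.94, limma adjusted p = 3.91e-05), Tnn, a tenascin of bone and tooth, fell (log2 change -5.72, limma adjusted p = 6e-06), and Tnxb, the tenascin of loose connective tissue, rose (log2 change 2.10, limma adjusted p = 3.92e-05). Tnn lay near the floor in adults (1.22 to 10.4, against 163 to 426 at P3), so the size of its change depends on the added 1.

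**Figure D5:**
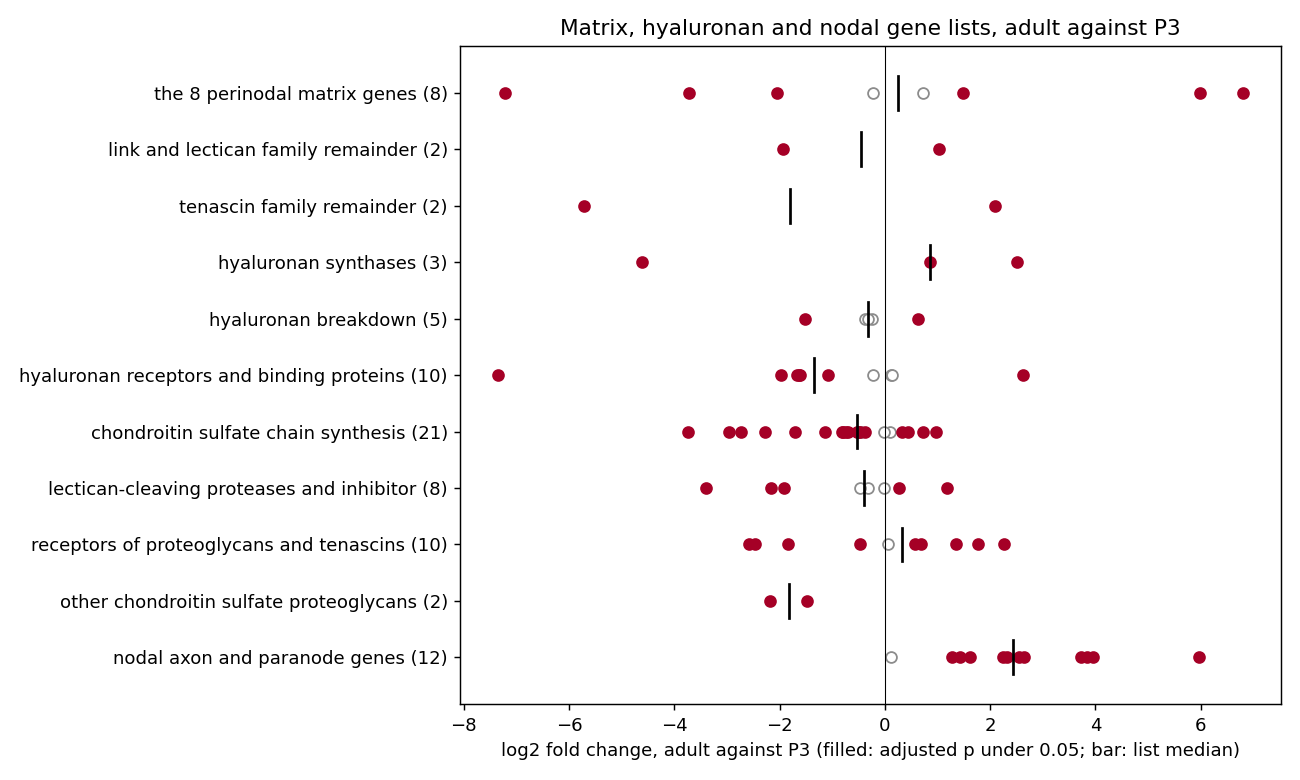
Log2 change in adults against P3 for the genes of each matrix list and of the nodal list, 1 point per gene, filled where the limma adjusted p is under 0.05, with a vertical bar at each list's median. Chain synthesis genes sit mostly below 0, and 11 of 12 nodal genes sit above 0 and are filled.

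The axonal and glial genes of the node itself were set beside the matrix genes. Of 12 nodal and paranodal genes, 11 rose in adults against P3, beside 34.4% of all tested genes, among them the sodium channel genes Scn4b (log2 change 5.96, limma adjusted p = 2.23e-11) and Scn8a (log2 change 3.85, limma adjusted p = 1.06e-09), the spectrin gene Sptbn4 (log2 change 3.95, limma adjusted p = 8.51e-09) and Gldn, gliomedin of the Schwann cell side (log2 change 2.23, limma adjusted p = 1.07e-07). Nrcam did not pass (log2 change 0.11, limma adjusted p = 0.55). The neuron markers moved with them: 7 of 8 rose, with a median log2 change of 2.58, against 2.43 for the nodal list, and their part in the result was not tested. At P14 against P7, 8 of these 12 rose and 1, Nrcam, fell, beside 24.3% and 23.8% of all tested genes, with a median log2 change of 1.38, and 7 of 8 neuron markers rose, with a median of 1.90. This was the step between neighbouring ages at which Hapln4 had its largest change and Ncan, Vcan and Tnc fell. At P21 against P14 the nodal list's median log2 change was -0.02, and of the 8 matrix members 1 passed, Hapln1. In adults against P21, 11 of 12 rose, against 25.4% of all tested genes, while of the matrix members Hapln4 rose and Hapln1 fell. The nodal list's median log2 change in adults against P3 was 2.43 and the members' 0.25, and the difference between the lists was not tested.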

How the data were processed

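The data are gene-level values of 15 bulk RNA-seq libraries, 3 per age. The authors deposited a signal per gene and library, a read count divided by 1 size factor per library, made with Partek, TopHat2 and DESeq2 on mm10 per the submitters' processing notes. The annotation, counting settings, use of strand and any filter are not given in the sources used here. Of all positive values, 99.94% were whole multiples of 1 read within a tolerance of 0.1, which recovered the reads. The floor of 3 reads covers counting error only, because reads that carry no molecular identifier need not be separate molecules.

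The members and gene lists were chosen with earlier results of these data known. Every member is named, as are the 3 genes most correlated with it and genes of the lists. Because the table holds normalized values, the main test was limma (3.58.1, R 4.3.3), two-sided, on log2(value + 1), with eBayes in its trend and robust form. It ran on genes at 10 or more in at least 3 libraries, over all 15 libraries in 1 fit, with Benjamini-Hochberg adjustment over 16723 genes. Alternatives were quantile and TMM scaling, no filter or one of 50, pseudocounts of 0.1 and 10, only both ages, edgeR (4.0.16), DESeq2 (1.42.0) and limma-voom on recovered reads, each library left out, the replicate number as a block, and the libraries low in Eif2s3y left out or Eif2s3y as a covariate. After the data were seen, P7 replicate 6 and P14 replicate 3 were left out together, and the libraries of the block were fitted without it. A simulation in which 200 genes were changed was used to test the fit. Exon lengths came from GENCODE M21. All same-age libraries differed beyond counting noise, so none was counted as a duplicate.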

Additional observations from a re-analysis of the deposited data

How the results depend on the processing

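In adults against P3 no member turned its direction under any of 30 alternatives, and members that rose numbered 3 under each but only both ages, with 4. Counts of called genes moved as follows. At P7 against P3 leaving out 1 library gave 3080 to 6349 genes, with 2 to 4 members that rose and 1 to 2 that fell, P7 replicate 6 and P14 replicate 3 left out together gave 4 that rose, and only both ages gave 2 that fell. At P14 against P7 leaving out 1 library gave 6736 to 9171 genes, with 2 to 4 members that rose and 2 to 4 that fell, and both libraries together gave 2 that rose. At P21 against P14, called genes numbered 1553, and 137 with only both ages, 2519 with DESeq2, 754 without the libraries low in Eif2s3y, 481 without P7 replicate 6 and P14 replicate 3, and 631 to 1969 with 1 library left out, with 1 to 2 members that fell and 0 without the libraries low in Eif2s3y. For adult against P21, 5211 genes were called with only both ages, 3987 without the libraries low in Eif2s3y and 6778 to 8514 with 1 library left out. Members that rose there numbered 4 with only both ages, 0 without the libraries low in Eif2s3y, 2 without both libraries and 1 to 2 with 1 left out, and members that fell 1 to 2. In adults against P3 leaving out 1 library gave 10650 to 12199 genes, with 3 members that rose and 3 to 4 that fell, and the joint test gave 13622 to 14471 genes and 7 to 8 members. Quantile normalization turned Itih5 (log2 -0.30, limma adjusted p = 0.0426) and Timp3 (log2 -0.18, adjusted p = 0.108) downward in adults against P3. For these moves the cause was not tested, except that fewer libraries were fitted where some were left out.

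Libraries that share a replicate number did not all deviate together: of 18 same-numbered pairs 5 correlated above 0.1 in their deviations from the age means, with a range from -0.2287 to 0.3186. Pairs with different numbers were not compared, so these values do not settle whether a number marks a pairing. With the replicate number as a block over P3, P14, P21 and adult, 645 genes were called at P21 against P14, against 977 in the same 12 libraries without the block. P7 shares no replicate numbers with the other ages.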
